A study of Mus musculus with 39 samples.

Results

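The 40 genes described here encode the core machinery of macroautophagy, and their transcript levels were measured in the distal sciatic nerve endoneurium of mice after a crush injury. They were chosen by name from textbook knowledge of the pathway, with no measured value in the rule. Earlier results of these data were known when they were chosen. They came from 55573 genes in the deposited count tables, and all 40 passed the filter on low counts among 18442 genes tested. Control mice carried 2 floxed *Lepr* alleles on a C57BL/6 background (Lepr fl/fl, Lepr-ctrl), and mutants carried the same floxed alleles with Dhh-Cre (Lepr fl/fl::Dhh-Cre, Lepr-cKO), which recombines in the Schwann cell lineage from embryonic life. Whether other endoneurial cells recombined as well cannot be told from these bulk counts. Each mouse, of either sex and 2 to 4 months old, had 1 sciatic nerve crushed, and the injured nerve and the uncrushed contralateral nerve of the same animal (healthy) were taken at 2 or 4 weeks post-crush (wpc). The 39 libraries came from 22 mice, of which 17 gave both nerves. At 2 wpc there were 5 healthy and 5 injured nerves of Lepr-ctrl and 6 healthy and 5 injured nerves of Lepr-cKO. At 4 wpc there were 5 healthy and 4 injured nerves of each genotype.

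Macroautophagy encloses cytoplasm, organelles or aggregates in a double membrane that is delivered to lysosomes. The ULK1 kinase complex and the class III PI3-kinase complex start the process, ATG9 vesicles and lipid transfer proteins feed the growing membrane, and 2 conjugation reactions attach ATG8 proteins (the LC3 and GABARAP families) to it, where cargo receptors bind. In injured peripheral nerve, Schwann cells use autophagy to break down their own myelin, and the study asked whether loss of leptin receptor signaling in these cells impairs that process. The values below are transcript levels and say nothing on their own about autophagic flux or about the lipidated form of LC3.

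Library totals ranged from 10905806 to 45016322 reads counted on genes (median 27752451), with the 4 injured Lepr-ctrl nerves at 4 wpc the shallowest (10905806 to 17640587). The lowest count of any member in any library was 89 (*Atg9a*). The nerves carried Schwann cell, myelin, macrophage and fibroblast markers at every time. The summed level of 5 myelin genes was 80600 to 112000 CPM (read counts scaled to library size with TMM factors) in healthy and 9610 to 74800 CPM in injured nerves, that of 8 macrophage genes was 106 to 376 CPM against 760 to 3730 CPM, and none of these markers was at 0 in any group. Libraries are named as in the labels, where a final c is the contralateral and a final i the injured nerve. Of the injured Lepr-cKO nerves at 2 wpc, SLRKO2wpc126i held 30600 CPM of skeletal muscle transcripts and 871 CPM of adipocyte transcripts, against at most 23.1 and 266 CPM in any other library, and at 4 wpc the Lepr-cKO nerve KO-169Sni had the highest myelin sum of the injured nerves. Whole-gene *Lepr* counts do not check the deletion, because the recombined allele lacks exon 1 and is still transcribed. *Lepr* stood at 5.46 to 14.5 CPM of the unscaled library total in healthy nerves, at 38.2 to 75.3 in injured Lepr-ctrl and 34.6 to 109 in injured Lepr-cKO nerves at 2 wpc, and at 21.2 to 71.2 and 26.1 to 37.4 at 4 wpc. The paper's own qPCR found less *Lepr* transcript in the mutants than in controls 2 weeks after crush. The counts did not show this at 2 wpc, where the injured medians were 69.2 in Lepr-cKO and 60.2 in Lepr-ctrl. At 4 wpc they were 32.7 and 41.1. Why qPCR and counts differ at 2 wpc was not tested.

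In healthy nerves *Gabarapl1*, *Gabarap* and *Map1lc3a* of the ATG8 family and *Sqstm1* were the most abundant of the 40 per unit of length. Levels per length are given as RPKM, reads scaled to library size and to the merged length of all annotated exons of a gene. Over all members and libraries they spanned 0.718 to 283 RPKM. There were 4 members above 50 RPKM in every healthy library, namely *Gabarapl1* (172 ± 7.92 RPKM, SD, n = 5, in Lepr-ctrl at 2 wpc), *Gabarap* (119 to 134 RPKM), *Sqstm1* (115 ± 11.7 RPKM) and *Map1lc3a* (99.1 ± 17.3 RPKM). The order of *Gabarap*, *Sqstm1* and *Map1lc3a* in that group was not separated by their spread, whereas *Gabarapl1* was the highest member in every healthy library of both genotypes. *Nbr1* followed at 32.5 ± 2.28 RPKM, then *Tax1bp1* (26.6 ± 2.53 RPKM), *Ulk2* (24.9 ± 2.74 RPKM) and *Map1lc3b* (22.7 ± 1.27 RPKM), the last 3 within each other's spread, and the remaining ATG8 gene, *Gabarapl2*, stood at 8.66 RPKM. The lowest mean level was that of *Atg2a* (1.56 ± 0.279 RPKM). Above 10 RPKM in all 39 libraries were 10 members. The order per length rests on the annotated lengths. Without scaling to length, *Map1lc3b* (170 ± 9.54 CPM) stood above *Map1lc3a* (117 ± 20.4 CPM) in healthy Lepr-ctrl nerves at 2 wpc.

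Crush injury lowered more of the machinery than it raised. In Lepr-ctrl at 2 wpc, 23 members were lower and 8 higher in injured nerves (edgeR quasi-likelihood test, adjusted p under 0.05 over all genes tested), which is 77.5% of the 40, where 63.9% of all genes tested passed (33.7% higher and 30.2% lower). In Lepr-cKO at 2 wpc 24 were lower and 8 higher, or 80% of the members against 65.1% of all genes (35.9% higher and 29.2% lower). At 4 wpc 18 were lower and 7 higher in Lepr-ctrl, or 62.5% against 63.6% of all genes (32.4% higher and 31.2% lower). The counts in Lepr-cKO at 4 wpc were 22 lower and 6 higher, or 70% against 55.3% of all genes (29.6% higher and 25.8% lower). The median log2 fold change of the members was -0.43 and -0.38 in Lepr-ctrl and Lepr-cKO at 2 wpc and -0.22 and -0.30 at 4 wpc, and that of all genes tested was 0.078, 0.097, 0.024 and 0.057. These are bulk nerves, so fewer cells of a type and less RNA per cell cannot be told apart. The changes ran alongside the fall of the myelin sum and the rise of the macrophage sum given above. In Lepr-ctrl at 2 wpc 4 of 5 myelin genes were lower, and of 8 macrophage genes 6 were higher and 1 lower. In the same comparison 3 of 5 Schwann cell genes were lower, and of 5 fibroblast genes 3 were lower and 1 higher. The fibroblast sum there was 4440 to 7580 CPM in healthy (median 4890) and 2500 to 7410 CPM in injured nerves (median 5670). Higher there were 4 of 5 repair Schwann cell, 5 of 5 adipocyte, 2 of 3 endothelial, 3 of 3 T cell and 3 of 3 proliferation genes. In Lepr-ctrl at 4 wpc 5 of 5 Schwann cell genes were lower. The Schwann cell sum was 4470 to 5200 CPM in healthy and 1870 to 4930 CPM in injured nerves. The part of these shifts in the member results was not tested.

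Most of these changes were small. With the study's own threshold of an absolute log2 fold change above 1 in addition, 3 members were lower (*Gabarapl1*, *Atg9a* and *Optn*) and 1 higher (*Vmp1*) at 2 wpc in both genotypes, against 14.3% and 19.8% of all genes in Lepr-ctrl and 13.4% and 20.9% in Lepr-cKO. At 4 wpc *Atg9a* was lower and *Gabarap* higher in Lepr-ctrl (15.9% and 20.1% of all genes), and *Atg9a* and *Optn* were lower in Lepr-cKO (10.8%, with 16.8% of all genes higher and no member). Injured and healthy libraries did not overlap for 19 lower and 4 higher members in Lepr-ctrl at 2 wpc, where 24.1% and 23.8% of all genes did the same. The corresponding counts were 20 and 5 in Lepr-cKO at 2 wpc (20.9% and 20.5%), 19 and 8 in Lepr-ctrl at 4 wpc (27.4% and 27.4%) and 17 and 5 in Lepr-cKO at 4 wpc (20.9% and 21%). Across the 4 comparisons of injured with healthy nerves, 17 members were lower in all 4 and 5 were higher in all 4 (*Atg101*, *Atg4a*, *Atg5*, *Gabarap* and *Tfe3*). A further 7 were lower in 1 to 3 of them and 5 higher in 1 to 3, and no member was higher in one and lower in another. The shares of all genes tested with such repeated calls are not given here, so these counts cannot be set against them. The 6 members that passed in none were *Ulk1*, *Becn1*, *Atg2b*, *Atg3*, *Map1lc3a* and *Tfeb*.

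**Figure D1:**
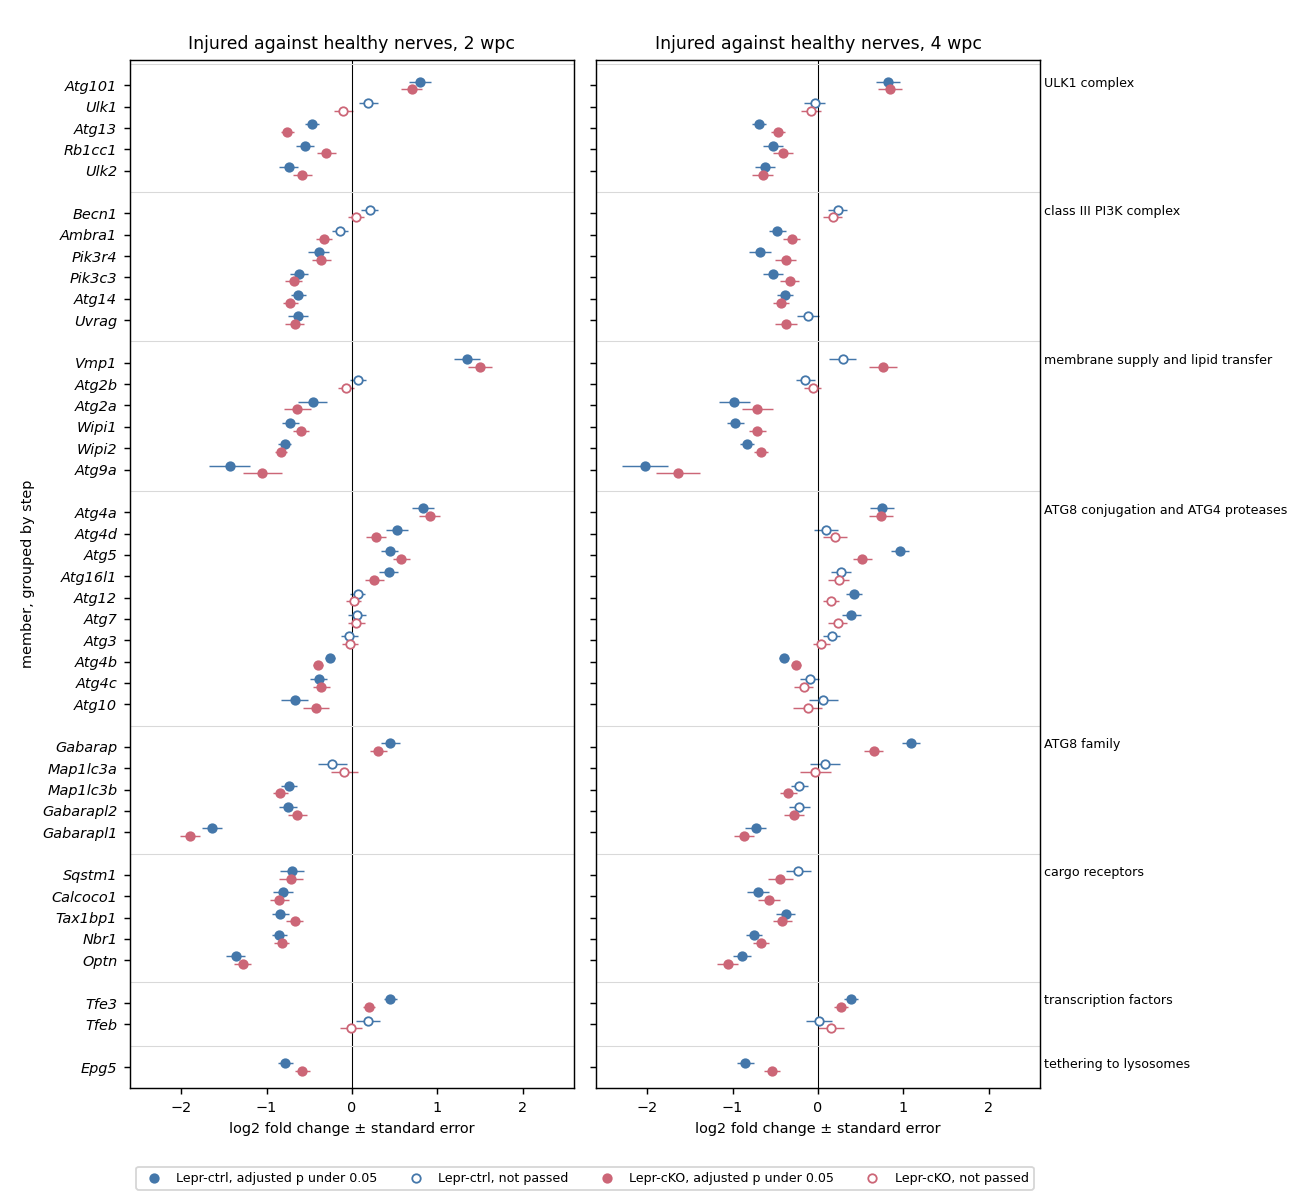
Log2 fold change of injured against healthy nerves (x axis, with standard error) for each of the 40 members (y axis, grouped by step of the pathway), at 2 wpc (left) and 4 wpc (right), in Lepr-ctrl (blue) and Lepr-cKO (red), with filled points for an adjusted p under 0.05. All 5 cargo receptors lie to the left of 0 in both genotypes and at both times, while the conjugation group holds points on both sides.

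In the ULK1 complex, the kinase assembly that receives nutrient and energy signals, 3 of 5 members were lower and 1 higher in each of the 4 comparisons. *Atg101*, which stabilises ATG13, rose in all 4. Its level in healthy Lepr-ctrl nerves at 2 wpc was 17.4, 16.9, 16.5, 16.6 and 20.7 CPM, and in injured nerves 35.4, 24.0, 29.9, 25.3 and 38.5 CPM. The groups did not overlap, and the log2 fold change was 0.80 (SE 0.13, adjusted p 1.98e-06, edgeR) in Lepr-ctrl and 0.70 (SE 0.12) in Lepr-cKO at 2 wpc, and 0.82 and 0.84 at 4 wpc. *Atg13*, the adaptor subunit, was lower in all 4 comparisons, from 71.7 ± 4.13 CPM in healthy to 51.8 ± 4.35 CPM in injured Lepr-ctrl nerves at 2 wpc (log2 fold change -0.47, SE 0.079). *Ulk2*, the second kinase paralog, was lower by -0.74 (SE 0.11) and -0.58 (SE 0.11) at 2 wpc and by -0.62 and -0.65 at 4 wpc on the log2 scale. *Rb1cc1*, which encodes the scaffold FIP200, was lower by -0.55 (SE 0.11) in Lepr-ctrl and by -0.30 in Lepr-cKO at 2 wpc, and the latter missed the threshold without SLRKO2wpc128i (-0.22, adjusted p 0.0804), while the values at 4 wpc were -0.53 and -0.41. For the kinase *Ulk1* itself the log2 fold changes lay between -0.10 and 0.19 and none passed.

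In the class III PI3-kinase complex, which makes the phosphatidylinositol 3-phosphate that marks the forming membrane, 4 or 5 of 6 members were lower and none higher. The lipid kinase *Pik3c3* went from 50.9 ± 3.65 CPM in healthy to 33.2 ± 5.61 CPM in injured Lepr-ctrl nerves at 2 wpc (log2 fold change -0.62, SE 0.11, adjusted p 7.43e-06, edgeR). *Atg14*, the subunit that directs the complex to autophagosome formation, was lower by -0.63 (SE 0.089) and -0.72 (SE 0.086) at 2 wpc and by -0.39 and -0.43 at 4 wpc. *Uvrag*, its alternative partner in endosomal traffic, was lower by -0.63 (SE 0.12) and -0.67 (SE 0.11) at 2 wpc, and by -0.38 (SE 0.13) in Lepr-cKO at 4 wpc. The value for Lepr-ctrl at 4 wpc was -0.12 (adjusted p 0.409). *Pik3r4*, the regulatory subunit VPS15, was lower by -0.36 to -0.68 in all 4 comparisons. In Lepr-cKO at 4 wpc, *Pik3c3* (-0.33) passed in 6 of 9 fits that each left out 1 library (highest adjusted p 0.0756, without KO-169Snc), and *Pik3r4* missed the threshold without KO-177Sni (adjusted p 0.0713). *Ambra1*, a scaffold that binds Beclin 1, passed in 3 (-0.33, -0.48 and -0.31) and not in Lepr-ctrl at 2 wpc (-0.14, adjusted p 0.193), and its Lepr-cKO value at 4 wpc missed the threshold without KO-169Sni (adjusted p 0.0614). *Becn1*, which encodes Beclin 1 itself, had positive values of 0.05 to 0.23 that did not pass, and 43.9% of its exon bases are shared with *Cntd1* on the opposite strand, whose own counts were at most 47 in any library. The kit does not mark strand, so reads of such pairs cannot be told apart.

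The genes for membrane supply and lipid transfer included, over the 4 comparisons pooled, the lowest and the highest log2 fold change of the 40, those of *Atg9a* in Lepr-ctrl at 4 wpc and of *Vmp1* in Lepr-cKO at 2 wpc. *Atg9a*, the lipid scramblase of the vesicles that seed the membrane, stood at 26.4, 29.1, 29.1, 28.9 and 30.4 CPM in healthy and at 10.4, 10.3, 12.4, 10.1 and 10.1 CPM in injured Lepr-ctrl nerves at 2 wpc. At 4 wpc the healthy Lepr-ctrl nerves held 31.6, 36.5, 35.4, 34.1 and 39.4 CPM and the injured ones 10.8, 5.67, 7.41 and 10.98 CPM. The injured nerves were lower throughout at both times, with log2 fold changes of -1.43 (SE 0.24, adjusted p 3.12e-06) and -2.03 (SE 0.27, adjusted p 5.46e-08, edgeR). In Lepr-cKO the values were -1.05 (SE 0.23) at 2 wpc and -1.64 (SE 0.26) at 4 wpc. The injured Lepr-cKO nerves at 2 wpc held 8.64, 29.2, 8.89, 15.99 and 8.16 CPM, and the nerve at 29.2 CPM, within the range of the 6 healthy nerves (26.4 to 31.5 CPM, median 29.7), was SLRKO2wpc126i with the skeletal muscle transcripts. Without it the difference was -1.48 (adjusted p 2.16e-08). Of the 5762 exon bases of *Atg9a*, 1832 are shared with *Gm29253* on the same strand, which had 0 counts in every library, and 46 with *Ankzf1* on the opposite strand, whose counts were 421 to 1453. How reads on shared bases were counted is not stated, so the 0 counts do not show that none fell there.

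*Vmp1*, an endoplasmic reticulum scramblase needed to close the growing membrane off from it, had the highest log2 fold change of the 40 at 2 wpc in both genotypes. Its level was 58.8, 60.5, 66.7, 63.1 and 61.7 CPM in healthy and 122, 180.1, 119, 244 and 127.9 CPM in injured Lepr-ctrl nerves at 2 wpc. The groups stood apart, and the log2 fold change was 1.35 (SE 0.15, adjusted p 1.31e-09, edgeR) in Lepr-ctrl and 1.5 (SE 0.14) in Lepr-cKO. At 4 wpc the injured Lepr-ctrl nerves held 75.9, 58.0, 66.9 and 50.1 CPM against 46.2 to 56.4 CPM in healthy ones, so that the groups overlapped (0.29, SE 0.16, adjusted p 0.102). With the animal as a block the last value was 0.28 with an adjusted p of 0.0439. The Lepr-cKO nerves at 4 wpc held 94.6, 63.5, 82.4 and 72.8 CPM when injured and 43.8 to 49.2 CPM when healthy, with no overlap (0.76, SE 0.16, adjusted p 0.000106). *Vmp1* shares 92 bases on the same strand with *Mir21a*, and 0 counts were assigned to the microRNA gene in every library. As at *Atg9a*, this 0 does not show whether reads fell on the shared bases.

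The remaining genes of this step were lower or did not pass. *Wipi2*, a phosphoinositide-binding protein that recruits the conjugation machinery, was 137 ± 9.46 CPM (n = 6) in healthy and 76.8 ± 5.53 CPM (n = 5) in injured Lepr-cKO nerves at 2 wpc, and was lower by -0.67 to -0.83 on the log2 scale in all 4 comparisons. Its paralog *Wipi1* was lower by -0.60 to -0.97. *Atg2a*, a lipid transfer protein that bridges the endoplasmic reticulum and the forming membrane, was lower by -0.46 (SE 0.17) and -0.64 (SE 0.16) at 2 wpc and by -0.98 (SE 0.18) and -0.71 (SE 0.18) at 4 wpc. In Lepr-ctrl at 2 wpc this passed in 7 of the 10 fits that each left out 1 library (highest adjusted p 0.0748, without SLRKO2wpc131i). The other lipid transfer gene, *Atg2b*, stayed between -0.15 and 0.07 without passing.

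**Figure D2:**
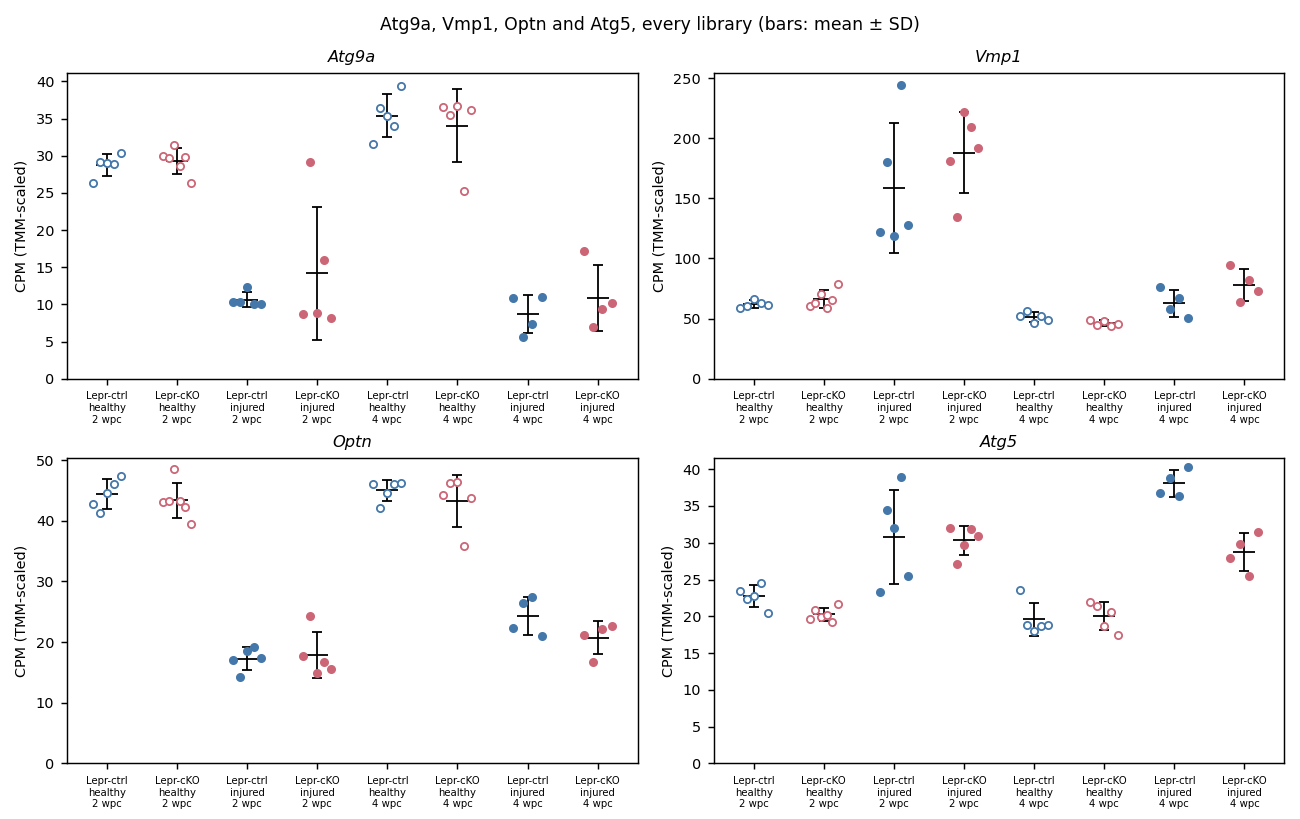
Level of *Atg9a*, *Vmp1*, *Optn* and *Atg5* (y axes, TMM-scaled CPM, starting at 0) in each of the 39 libraries, by group (x axis, open points healthy and filled points injured nerves, blue Lepr-ctrl and red Lepr-cKO), with bars for mean ± SD. Injured nerves are low for *Atg9a* and *Optn*, with 1 injured Lepr-cKO nerve at 29.2 CPM of *Atg9a*, and high for *Vmp1* at 2 wpc.

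Among the conjugation enzymes and ATG4 proteases, 4 of 10 members were higher and 3 lower at 2 wpc in each genotype. At 4 wpc 4 were higher and 1 lower in Lepr-ctrl, and 2 higher and 1 lower in Lepr-cKO. *Atg4a*, a protease that trims ATG8 proteins with preference for the GABARAP family, stood at 8.61, 8.12, 8.34, 8.86 and 9.57 CPM in healthy and at 14.6, 15.3, 14.3, 16 and 17.3 CPM in injured Lepr-ctrl nerves at 2 wpc. No injured nerve of either genotype lay within the healthy range at either time, and the log2 fold changes were 0.83 (SE 0.13), 0.91 (SE 0.12), 0.75 (SE 0.14) and 0.74 (SE 0.14) in the order Lepr-ctrl and Lepr-cKO at 2 wpc, then at 4 wpc. *Atg4b*, the protease with the broadest activity on the family, moved the other way by -0.26 to -0.40 in all 4 comparisons. *Atg4c* was lower at 2 wpc (-0.39, SE 0.10, and -0.36, SE 0.097) and did not pass at 4 wpc (-0.10 and -0.17), and *Atg4d* was higher at 2 wpc (0.53, SE 0.13, and 0.28, SE 0.12), the Lepr-cKO value with an adjusted p of 0.0463 that became 0.0594 with the animal as a block and passed in 2 of 5 fits without 1 library (0.196 without SLRKO2wpc126i). Of the exon bases of *Atg4d*, 19.3% are shared with *Kri1* on the opposite strand, whose counts (252 to 567 in healthy and 122 to 441 in injured libraries) were 75.1% and 55% of those of *Atg4d*.

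*Atg5*, which joins ATG12 in the conjugate that drives lipidation of ATG8 proteins, rose in all 4 comparisons. Its level was 23.4, 22.4, 22.8, 24.5 and 20.4 CPM in healthy and 23.3, 34.4, 32.0, 38.9 and 25.5 CPM in injured Lepr-ctrl nerves at 2 wpc, where 1 injured nerve lay within the healthy range. At 4 wpc the injured Lepr-ctrl nerves held 36.8, 38.8, 36.4 and 40.4 CPM and the healthy ones 18 to 23.6 CPM. The log2 fold change was 0.44 (SE 0.10) and 0.58 (SE 0.095) at 2 wpc in Lepr-ctrl and Lepr-cKO, and 0.96 (SE 0.11, adjusted p 1.53e-09, edgeR) and 0.52 (SE 0.11, adjusted p 9.81e-05) at 4 wpc. *Atg16l1*, the third part of that conjugate, was higher at 2 wpc (0.43, SE 0.11, and 0.26, SE 0.11, the latter 0.18 with an adjusted p of 0.155 without SLRKO2wpc128i). *Atg12* passed in Lepr-ctrl at 4 wpc (0.42, SE 0.094), as did *Atg7*, the E1-like enzyme of both reactions (0.39, SE 0.11). *Atg10*, the E2-like enzyme for ATG12, was lower at 2 wpc (-0.67, SE 0.16, and -0.42, SE 0.15), and in Lepr-cKO the fit without SLRKO2wpc128i gave an adjusted p of 0.0636. *Atg3*, the E2-like enzyme for the ATG8 proteins, had values of -0.03 to 0.16 that did not pass.

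The 5 ATG8 family genes moved apart from one another. *Gabarapl1*, the highest member per length in healthy nerves, stood at 360.1, 333, 331, 341 and 366 CPM in healthy and at 77.3, 111, 137, 137 and 92.9 CPM in injured Lepr-ctrl nerves at 2 wpc. The injured Lepr-cKO nerves at 2 wpc held 83.9, 119.5, 104, 89.4 and 88.4 CPM, against 313 to 392 CPM (median 374) in the 6 healthy ones. In both genotypes every injured nerve lay far below every healthy one, with log2 fold changes of -1.64 (SE 0.12, adjusted p 7.68e-14) and -1.90 (SE 0.12, adjusted p 1.24e-15, edgeR). At 4 wpc the injured nerves held 215, 227, 195 and 229 CPM in Lepr-ctrl and 192, 162, 174.9 and 205 CPM in Lepr-cKO, and the differences were -0.73 (SE 0.12) and -0.87 (SE 0.12). The gene lies on chromosome 6 (chr6:129533160-129542346, plus strand, GRCm38), and 28.3% of its exon bases are shared with *1700101I11Rik* on the opposite strand, whose counts were 0.329% of those of *Gabarapl1* in healthy and 0.29% in injured libraries.

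*Gabarap* moved the other way. Its level was 248, 232, 223, 219 and 235 CPM in healthy and 225, 333, 329, 410.1 and 283 CPM in injured Lepr-ctrl nerves at 2 wpc. At 4 wpc the injured nerves held 487, 522, 454 and 479 CPM in Lepr-ctrl and 311, 369, 303 and 463 CPM in Lepr-cKO, against 211 to 262 and 216 to 244 CPM in the healthy nerves. At 2 wpc 1 injured Lepr-ctrl nerve lay within the healthy range and at 4 wpc none of either genotype did. The log2 fold changes were 0.45 (SE 0.11, adjusted p 0.00047) and 0.31 (SE 0.10, adjusted p 0.00927) at 2 wpc, and 1.09 (SE 0.11, adjusted p 4.01e-10) and 0.65 (SE 0.11, adjusted p 1.04e-05, edgeR) at 4 wpc, in Lepr-ctrl and Lepr-cKO.

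As a share of the summed RPKM of the 5 ATG8 genes, *Gabarapl1* went from 40.3% ± 1.26 (SD, n = 5) in healthy to 16.6% ± 1.94 (n = 5) in injured Lepr-ctrl nerves at 2 wpc, and *Gabarap* from 29.4% ± 1.15 to 51.6% ± 4.19. At 4 wpc the shares in Lepr-ctrl were 41.3% ± 2.48 and 21.4% ± 1.40 for *Gabarapl1* and 28.5% ± 1.12 and 52.3% ± 1.08 for *Gabarap*. In Lepr-cKO *Gabarap* made up 50.3% ± 7.29 and 47.5% ± 4.96 of the sum in injured nerves at 2 and 4 wpc. The size of each share depends on the annotated exon lengths. The log2 ratio of *Gabarapl1* to *Gabarap* counts, which does not depend on library scaling, was 0.52 to 0.64 in the 5 healthy and -1.61 to -1.26 in the 5 injured Lepr-ctrl nerves at 2 wpc. Its change with injury was -2.10 in Lepr-ctrl and -2.21 in Lepr-cKO at 2 wpc, and -1.83 and -1.50 at 4 wpc (two-sided exact permutation tests, p 0.00794, 0.00216, 0.00794 and 0.00794, each the smallest the group sizes allow, adjusted p 0.0159, 0.013, 0.0159 and 0.0159 over 12 ratio tests). In nerves of the same animal the change was -2.09, -2.19, -1.87 and -1.49, with exact sign-flip p-values of 0.125, 0.0625, 0.125 and 0.125, the smallest that 4 or 5 pairs can give. Between injured nerves of the genotypes the differences (Lepr-cKO minus Lepr-ctrl) were -0.10 at 2 wpc (exact permutation p 0.405) and 0.20 at 4 wpc (p 0.2), and without SLRKO2wpc126i the 2 wpc value was -0.20 (p 0.0159, not adjusted).

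**Figure D3:**
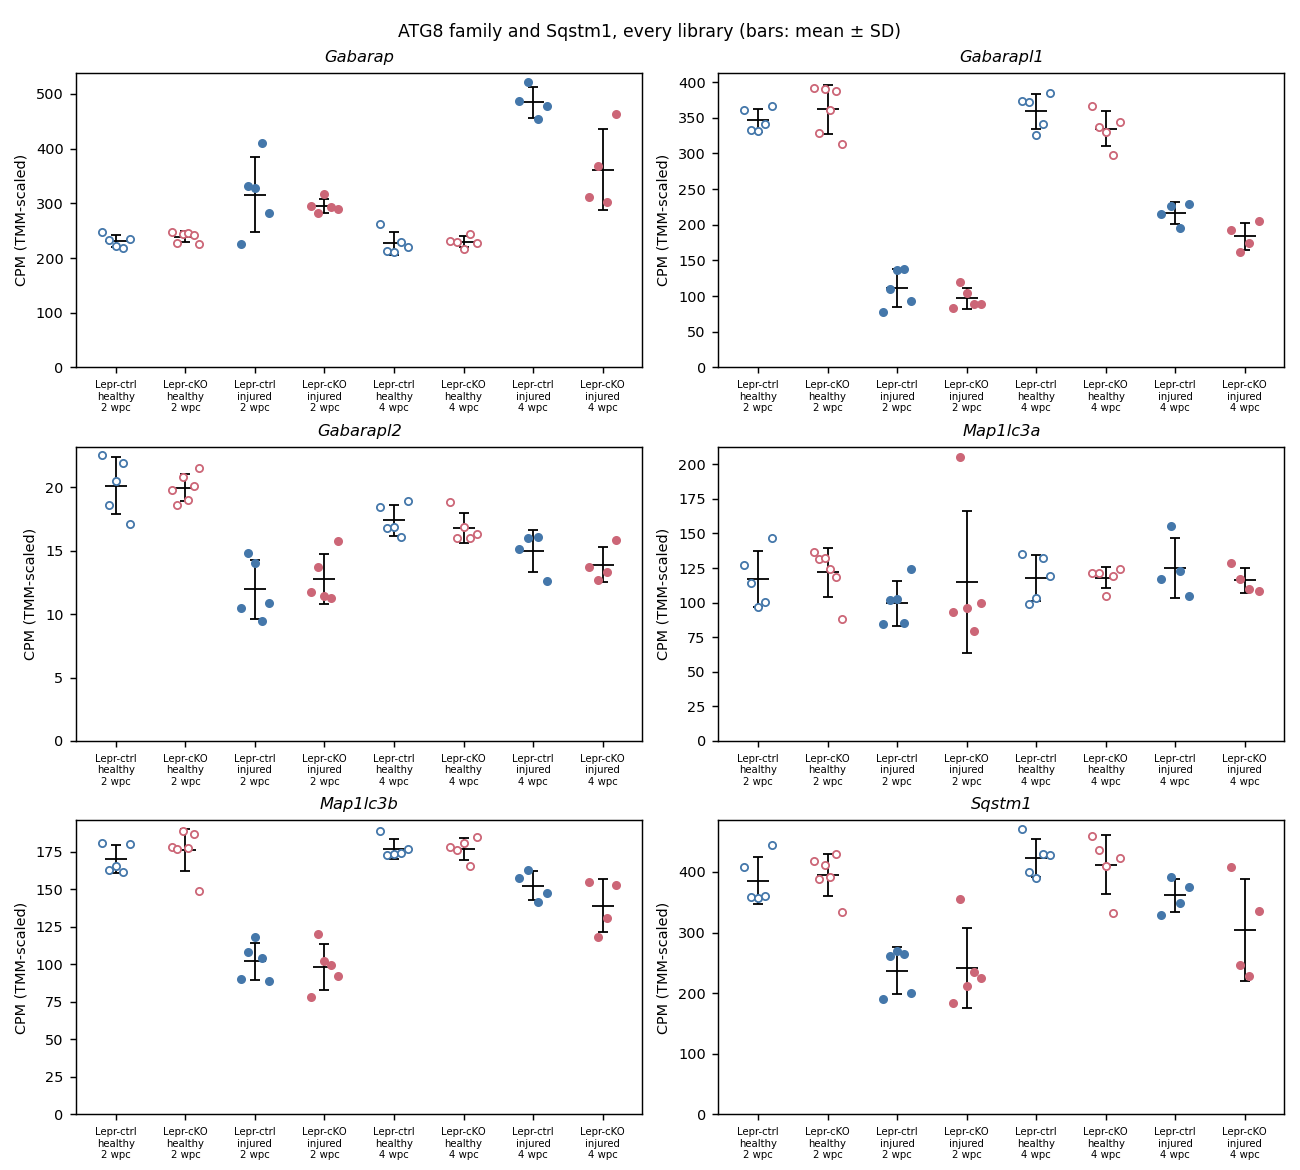
Level of the 5 ATG8 family genes and of *Sqstm1* (y axes, TMM-scaled CPM, starting at 0) in each of the 39 libraries, by group (x axis, open points healthy and filled points injured nerves, blue Lepr-ctrl and red Lepr-cKO), with bars for mean ± SD. *Gabarapl1* is low and *Gabarap* high in injured nerves, and 1 injured Lepr-cKO nerve at 2 wpc stands at 206 CPM of *Map1lc3a*.

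*Map1lc3b*, whose product LC3B is the usual marker of autophagosomes, was lower at 2 wpc in both genotypes. It stood at 181, 163, 166, 162 and 180.0 CPM in healthy and at 90.3, 109, 119, 104 and 88.9 CPM in injured Lepr-ctrl nerves, with no overlap (-0.74, SE 0.093, adjusted p 1.95e-08, edgeR). In Lepr-cKO the log2 fold change was -0.84 (SE 0.090) at 2 wpc and -0.35 (SE 0.099, adjusted p 0.00323) at 4 wpc. In Lepr-ctrl at 4 wpc the injured nerves (142 to 163 CPM) all lay below the healthy ones (up to 189 CPM), with a difference of -0.22 that missed the threshold (SE 0.098, adjusted p 0.0546). It passed with mitochondrially encoded genes left out (adjusted p 0.0467), with only the 2 groups in the fit (0.0357) and without WT-171Sni (0.041). *Gabarapl2* was lower at 2 wpc (-0.75, SE 0.11, and -0.64, SE 0.11) and at 4 wpc had values of -0.22 (adjusted p 0.108) in Lepr-ctrl and -0.28 in Lepr-cKO, the last with an adjusted p of 0.0456 that rose above the threshold in 6 of 9 fits without 1 library (up to 0.113, without KO-169Snc).

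*Map1lc3a* passed in none of the 4 comparisons (log2 fold changes -0.23, -0.09, 0.08 and -0.03). Its injured Lepr-cKO nerves at 2 wpc held 93.3, 205.6, 96.3, 79.5 and 99.7 CPM. The nerve at 205.6 CPM was SLRKO2wpc126i, and without it the difference was -0.39 with an adjusted p of 0.00836. The log2 ratio of *Map1lc3a* to *Map1lc3b* counts rose with injury by 0.51 in Lepr-ctrl and 0.69 in Lepr-cKO at 2 wpc (exact permutation p 0.00794 and 0.00216, adjusted p 0.0159 and 0.013), and by 0.33 in Lepr-cKO at 4 wpc (p 0.0159, adjusted p 0.0272). In Lepr-ctrl at 4 wpc it differed by 0.30 (p 0.0714, adjusted p 0.107). The Lepr-cKO value at 4 wpc was 0.28 to 0.34 with a p of 0.0571 when KO-169Snc, KO-175Snc, KO-176Snc or KO-179Snc was left out. Without SLRKO2wpc126i the Lepr-cKO value at 2 wpc was 0.53 (p 0.00476, not adjusted), and in nerves of the same animal the 3 called values were 0.59, 0.66 and 0.33 (exact sign-flip p 0.125, 0.0625 and 0.25, too few pairs to pass).

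**Figure D4:**
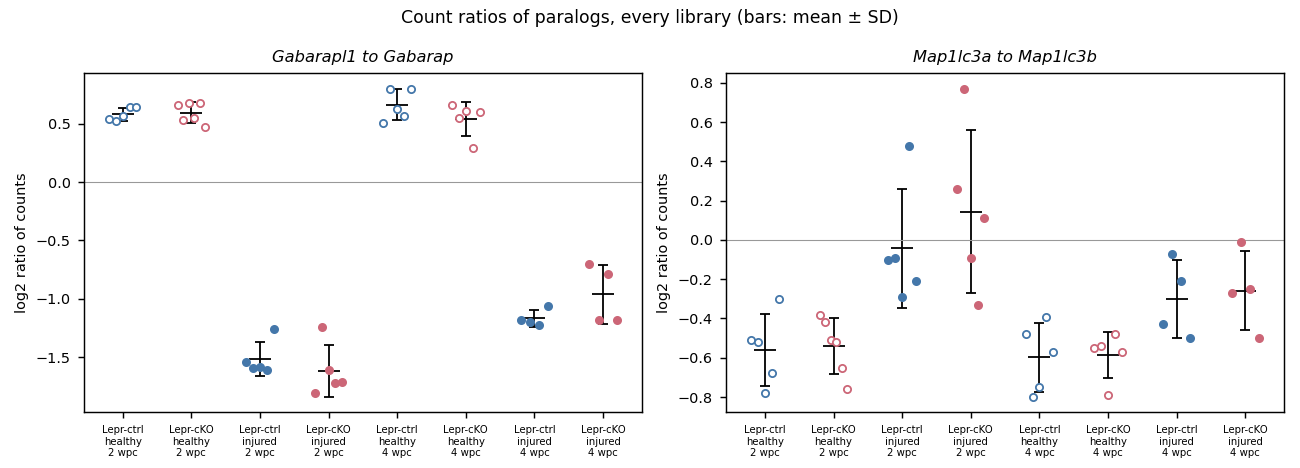
Log2 ratio of the counts of 2 paralogs (y axes), *Gabarapl1* to *Gabarap* (left) and *Map1lc3a* to *Map1lc3b* (right), in each of the 39 libraries by group (x axis, open points healthy and filled points injured, blue Lepr-ctrl and red Lepr-cKO), with bars for mean ± SD. The left ratio is above 0 in every healthy nerve and at or below -0.70 in every injured nerve, while the groups of the right ratio lie closer together.

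Of the cargo receptors, which tether ubiquitinated or organelle cargo to ATG8 proteins, 5 of 5 were lower in Lepr-ctrl and in Lepr-cKO at 2 wpc, 4 of 5 in Lepr-ctrl and 5 of 5 in Lepr-cKO at 4 wpc. *Optn*, a receptor for damaged mitochondria and bacteria, had the largest change. It stood at 42.7, 41.4, 44.5, 46.1 and 47.4 CPM in healthy and at 17, 14.2, 18.5, 19.2 and 17.3 CPM in injured Lepr-ctrl nerves at 2 wpc. No injured nerve of either genotype reached the healthy range at either time, and the log2 fold changes were -1.36 (SE 0.11, adjusted p 5.66e-13) and -1.28 (SE 0.10) at 2 wpc and -0.89 (SE 0.11) and -1.06 (SE 0.12) at 4 wpc. *Nbr1*, a receptor for ubiquitinated aggregates, was lower by -0.85 and -0.82 at 2 wpc and by -0.75 and -0.67 at 4 wpc. *Calcoco1*, a receptor for endoplasmic reticulum and Golgi, was lower by -0.81, -0.85, -0.70 and -0.57, and *Tax1bp1*, a ubiquitin-binding receptor, by -0.84, -0.67, -0.38 and -0.42.

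*Sqstm1* encodes p62, the ubiquitin-binding receptor whose protein is itself degraded by autophagy. It stood at 408, 359, 357, 359.8 and 445 CPM in healthy and at 190.0, 261, 270.1, 264 and 201 CPM in injured Lepr-ctrl nerves at 2 wpc, with no overlap (-0.70, SE 0.14, adjusted p 7.78e-05, edgeR). In Lepr-cKO the injured nerves held 185, 355, 211, 235 and 225 CPM and the difference was -0.71 (SE 0.14), or -0.87 (adjusted p 6.53e-07) without SLRKO2wpc126i, which had the 355 CPM. At 4 wpc injured and healthy nerves overlapped in both genotypes. The difference was -0.23 (SE 0.15, adjusted p 0.193) in Lepr-ctrl and -0.44 (SE 0.15, adjusted p 0.0164) in Lepr-cKO, and the latter was -0.61 (adjusted p 0.00184) without KO-169Sni, whose level was 409 CPM, and missed the threshold without KO-175Sni (-0.37, adjusted p 0.0696) or KO-176Sni (-0.33, adjusted p 0.085). Of the exon bases of *Sqstm1*, 17.3% are shared with *Mrnip* on the opposite strand, whose counts were at most 0.743% of those of *Sqstm1*.

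Of the 2 transcription factor genes, *Tfe3* was higher in all 4 comparisons by 0.45 (SE 0.077), 0.20 (SE 0.073), 0.39 (SE 0.081) and 0.27 (SE 0.081) on the log2 scale. *Tfeb* had values between -0.01 and 0.19 and did not pass. Both proteins are held in the cytoplasm by mTORC1 and, when released, bind E-box motifs in promoters of lysosomal and autophagy genes. *Epg5*, which tethers autophagosomes to lysosomes, went from 26.3 ± 1.68 to 15.3 ± 0.444 CPM in Lepr-ctrl at 2 wpc and was lower in all 4 comparisons (-0.78, -0.58, -0.85 and -0.54).

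Promoter windows of 300 bases (250 before and 50 after each RefSeq transcription start, GRCm38.p6) were at hand for 33 of the 40 members, and not for *Atg12*, *Becn1*, *Map1lc3a*, *Atg16l1*, *Pik3c3*, *Epg5* and *Rb1cc1*. Both strands were searched. The palindromic E-box CACGTG was in the windows of 4 members (*Atg3*, *Atg5*, *Atg7* and *Atg14*), or 12.1%, against 8.09% of 27025 genes with a window, and TCACGTG, the longer form preferred by TFEB and TFE3, which contains the first motif, was in 3 (9.09% against 4.29%). These 4 sites are shown because they are the only places in the windows where the letters of that longer form occur, with the motif in capitals, on the strand of the gene. They lie at chr6:114670953-114670979 (plus strand, *Atg7*), chr14:47568419-47568445 (minus strand, *Atg14*) and chr16:45158724-45158750 and chr16:45158747-45158773 (plus strand, *Atg3*).
Atg7: atattggtggTCACGTGtgcagtaagt
Atg14: aacaaaatccCACGTGActggccctga
Atg3, first site: cctccttttgTCACGTGtcctgggaga
Atg3, second site: gagagtcgagTCACGTGaggccttagg
Of these 3 genes, *Atg14* was lower in all 4 comparisons, *Atg7* was higher in 1, and *Atg3* passed in none.

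Other letters searched were GGGCGG (GC box), in the windows of 23 members or 69.7% against 38.2% of all genes, CCAAT in 9 (27.3% against 41.1%), TGACNNNGC (the core of the antioxidant response element) in 5 (15.2% against 14%), TGANTCA (AP-1) in 1, *Tfe3* (3.03% against 8.97%), and GTAAACA (FoxO) in 0 (0% against 4.05%). The member that fell most at 2 wpc, *Gabarapl1*, had 2 GC boxes and no other match, and the window of *Gabarap* held none of these letters. The 218 bases of the *Gabarapl1* window that precede the annotated gene (chr6:129532942-129533159, plus strand, GRCm38.p6, RefSeq) are shown with the GC box they contain in capitals.
Gabarapl1: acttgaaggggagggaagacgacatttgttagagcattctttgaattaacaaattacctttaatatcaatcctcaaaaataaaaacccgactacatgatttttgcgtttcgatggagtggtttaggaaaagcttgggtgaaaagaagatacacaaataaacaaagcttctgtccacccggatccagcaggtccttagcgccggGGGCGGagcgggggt
A match is a stretch of letters and was not tested for binding of any factor. The shares of all genes for these letters are over the 27025 genes with a window, whether or not they passed the count filter, which all members passed.

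The response to injury was compared between the times as the injured-to-healthy difference at 4 wpc minus that at 2 wpc, since the 2 sets of animals have healthy nerves of their own. In Lepr-ctrl 9 members passed, 8 toward higher values at 4 wpc and 1 toward lower, which is 22.5% of the members against 9.1% of all genes (4.05% higher and 5.05% lower). *Gabarapl1* led with 0.91 (SE 0.17, adjusted p 0.000865, edgeR), since its injured nerves held 77.3 to 137 CPM at 2 wpc and 195 to 229 CPM at 4 wpc. The other ATG8 genes that passed were *Gabarap* (0.65, SE 0.16), *Gabarapl2* (0.54, SE 0.16) and *Map1lc3b* (0.52, SE 0.13), so that 4 of the 5 did. *Atg10* (0.72, SE 0.24), *Atg5* (0.52, SE 0.15), *Optn* (0.48, SE 0.15) and *Tax1bp1* (0.46, SE 0.15) also passed, and *Vmp1* was the 1 member in the other direction (-1.06, SE 0.22, adjusted p 0.00201). By the same test in Lepr-ctrl 3 of 3 proliferation genes moved lower. Their summed level was 58.5 to 159 CPM in injured Lepr-ctrl nerves at 2 wpc and 6.66 to 25.6 CPM at 4 wpc. Of 5 fibroblast genes 2 moved higher and 1 lower, and 1 of 5 Schwann cell and 1 of 5 myelin genes moved lower. The part of these markers in the result was not tested.

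With the animal as a block 6 members passed in Lepr-ctrl. *Atg10* (0.79, adjusted p 0.0582), *Gabarapl2* (0.45, adjusted p 0.0931), *Optn* (0.54, adjusted p 0.0708) and *Tax1bp1* (0.45, adjusted p 0.0506) missed the threshold and *Uvrag* passed (0.49, adjusted p 0.0449). Leaving out single libraries gave 4 to 10 members. The count was 4 without WT-173Snc, WT-171Sni, SLRKO2wpc131c, SLRKO2wpc123i or SLRKO2wpc147i, and 5 without WT-170Sni, SLRKO2wpc120c or SLRKO2wpc130c. Of the 19 such fits, *Atg5* passed in 13, *Gabarapl2* in 10, *Atg10* in 5, *Tax1bp1* in 4 and *Optn* in 2, and *Gabarapl1*, *Gabarap*, *Map1lc3b* and *Vmp1* in all 19. The shares of all genes passing in these fits and in that with the block are not given here.

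In Lepr-cKO 2 members passed, or 5% against 2.09% of all genes (1.51% higher and 0.575% lower), both higher: *Gabarapl1* (1.03, SE 0.17, adjusted p 0.000397) and *Map1lc3b* (0.49, SE 0.13, adjusted p 0.0396). For *Vmp1* the value was -0.74 (SE 0.21, adjusted p 0.0537). With the animal as a block *Vmp1* passed (-0.75, adjusted p 0.0164) and *Map1lc3b* did not (0.49, adjusted p 0.118), and *Map1lc3b* passed in 2 of 14 fits without 1 library (those without KO-175Sni or SLRKO2wpc126i), with adjusted p up to 0.123. Without SLRKO2wpc126i 3 members passed, *Vmp1* among them, and the share of all genes in that fit is not given here. Whether the course from 2 to 4 wpc differed between the genotypes was not tested.

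**Figure D5:**
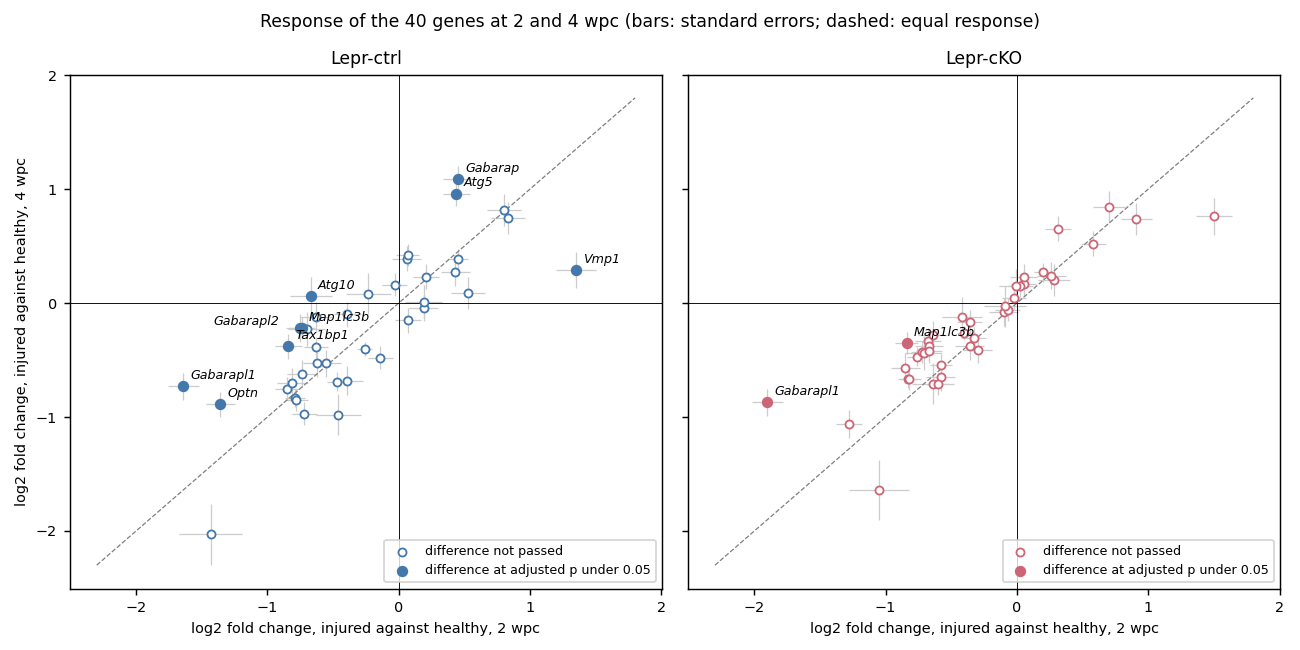
Log2 fold change of injured against healthy nerves at 2 wpc (x axis) and at 4 wpc (y axis) for the 40 members, with standard errors, in Lepr-ctrl (left) and Lepr-cKO (right). The dashed line marks equal responses, filled and named points are those whose difference between the times passed an adjusted p of 0.05, and *Gabarapl1* is one of them in both panels.

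Between the genotypes no member passed the edgeR test in any comparison of all libraries. In injured nerves at 2 wpc the edgeR test called 0 of 40 (0.58% of all genes, 0.569% with the fold threshold, all of them higher), and DESeq2 called 0. An unadjusted p under 0.05 by edgeR was found for 4 members and for 1187 of the 18442 genes tested. The share of 0.58% comes from the fit with SLRKO2wpc126i. It includes 5 of 5 skeletal muscle markers and no marker of another cell type. The lowest p was that of *Atg13*, which stood at 44.6 ± 3.90 CPM in Lepr-cKO and 51.8 ± 4.35 CPM in Lepr-ctrl (log2 difference -0.22, 95% interval -0.38 to -0.06, adjusted p 0.45). The autophagy substrate gene *Sqstm1* differed by 0.03 (-0.26 to 0.32) and the marker gene *Map1lc3b* by -0.05 (-0.24 to 0.14). *Gabarapl1* differed by -0.19 (-0.43 to 0.05) and *Vmp1* by 0.24 (-0.07 to 0.55). The intervals of all 40 members lay within -1 to 1, from -0.47 (*Atg2a*) to 0.90 (*Atg9a*). Without SLRKO2wpc126i the count was 0 as well, and *Atg9a* turned from 0.41 to -0.03 (-0.41 to 0.35), *Sqstm1* from 0.03 to -0.14 (-0.42 to 0.13) and *Map1lc3a* from 0.21 to -0.11 (-0.38 to 0.16). *Gabarapl1* was then at -0.28 (-0.52 to -0.03), *Vmp1* at 0.35 (0.05 to 0.64) and *Map1lc3b* at -0.13 (-0.31 to 0.06), and the intervals of the 40 members ran from -0.52 (*Atg2a* and *Gabarapl1*) to 0.64 (*Vmp1*).

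In injured nerves at 4 wpc the edgeR test again called 0 of 40, where 1.31% of all genes passed (1.02% higher and 0.287% lower, or 0.363% and 0.0868% with the fold threshold). An unadjusted p under 0.05 by edgeR was found for 7 members and for 3667 of the 18442 genes tested. DESeq2 called 2 members, *Atg5* and *Gabarap*, and its share of all genes is not given here. *Atg5* stood at 36.8, 38.8, 36.4 and 40.4 CPM in Lepr-ctrl and at 27.9, 29.9, 25.5 and 31.5 CPM in Lepr-cKO. The highest Lepr-cKO value was below the lowest Lepr-ctrl value, and the log2 difference was -0.41 (95% interval -0.63 to -0.19) with an adjusted p of 0.0554 by edgeR and 0.0215 by DESeq2. *Gabarap* stood at 487, 522, 454 and 479 CPM in Lepr-ctrl and at 311, 369, 303 and 463 CPM in Lepr-cKO. Of the Lepr-cKO nerves 3 lay below the Lepr-ctrl range and 1 within it, and the difference was -0.43 (95% interval -0.67 to -0.19, adjusted p 0.06 by edgeR and 0.0225 by DESeq2).

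The other 5 members with an unadjusted p under 0.05 at 4 wpc were *Atg12* (-0.26), *Uvrag* (-0.30), *Pik3r4* (0.28), *Wipi1* (0.23) and *Atg4b* (0.15), with adjusted p from 0.133 to 0.227. Groups did not overlap for 1 member lower in Lepr-cKO (*Atg5*) and 1 higher (*Atg4b*), where 2.75% and 2.92% of all genes did the same. *Sqstm1* differed by -0.25 (-0.58 to 0.08), *Map1lc3b* by -0.13 (-0.33 to 0.07) and *Gabarapl1* by -0.24 (-0.51 to 0.03). Beside these values, the macrophage sum was 1690 to 3730 CPM in Lepr-ctrl (median 2910) and 1170 to 2000 CPM in Lepr-cKO (median 1680), and the myelin sum 23700 to 32300 CPM and 29400 to 74800 CPM, and their part in the member values was not tested. Of the single genes in these sums, 0 of 8 macrophage and 0 of 5 myelin genes were called between the genotypes there. Without the Lepr-cKO nerve KO-177Sni, which held the highest *Gabarap* and *Atg5* levels of its group, 4 members passed (*Gabarap*, *Atg12* and *Atg5* lower and *Pik3r4* higher), whereas without KO-169Sni none did and *Atg5* was -0.39 (adjusted p 0.187).

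In healthy nerves no member differed between the genotypes by the test. At 2 wpc 0 of 40 members passed (0.0108% of all genes) and at 4 wpc 0 of 40 (0.00542%), and DESeq2 called 0 at either time. None had an unadjusted p under 0.05, where 222 and 346 of the 18442 genes tested did. The member differences ran from -0.16 (*Atg5*) to 0.14 (*Atg101*) at 2 wpc and from -0.15 (*Atg2a* and *Vmp1*) to 0.08 (*Tfe3*) at 4 wpc, with median half-widths of the 95% intervals of 0.20 and 0.22. The difference between genotypes in how the nerve responded to injury passed for 0 of 40 at 2 wpc and 0 of 40 at 4 wpc by edgeR, as it did for 0% of all genes, and for 0 by DESeq2. An unadjusted p under 0.05 by edgeR was found for 2 and 4 members, and for 797 and 2013 of the 18442 genes tested. The largest at 4 wpc were *Vmp1* (0.47, 95% interval 0.02 to 0.92), *Atg5* (-0.44, -0.75 to -0.13) and *Gabarap* (-0.44, -0.77 to -0.11), with adjusted p of 0.443, 0.384 and 0.384, and *Epg5* (0.31, adjusted p 0.416) was the other of the 4.

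Outside the 40 members, genes of 5 further lists were counted, and in Lepr-ctrl at 2 wpc, the comparison used for all of them, 33.7% of all genes tested were higher and 30.2% lower. Of 25 genes of mTORC1 and AMPK signaling, 9 were higher and 11 lower there, and 8 and 10, 9 and 10, and 6 and 9 in the other comparisons of injured with healthy nerves (Lepr-cKO at 2 wpc, then Lepr-ctrl and Lepr-cKO at 4 wpc). The largest changes in Lepr-ctrl at 2 wpc were *Rragb* (-2.57, SE 0.24), a Rag GTPase that brings mTORC1 to lysosomes, *Prkab2* (-2.05, SE 0.15), an AMPK subunit, *Sesn2* (1.77, SE 0.19), a leucine-sensing inhibitor of mTORC1, and *Prkaa1* (0.97, SE 0.11), the AMPK catalytic subunit. *Mtor* itself was lower in all 4, by -0.83, -0.71, -1.08 and -0.84. The one regulator called between genotypes at 2 wpc was *Prkaa2*, the AMPK catalytic subunit of muscle, with 66.4 CPM in SLRKO2wpc126i and 1.10 to 2.31 CPM in the other injured Lepr-cKO nerves.

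Of 14 other genes of autophagosome formation and its inhibitors, 6 were higher and 4 lower in Lepr-ctrl at 2 wpc, led by *Trp53inp2* (2.00, SE 0.18), a coactivator and ATG8-binding protein, and by *Wdfy3* (-0.74, SE 0.10) and *Bcl2l1* (-0.72, SE 0.17), which encode an aggregate-binding scaffold and a Beclin 1 inhibitor. *Atg9b* passed as higher as well (1.8, SE 0.61), on levels of 0.177 to 0.279 CPM in healthy and 0.550 to 1.10 CPM in injured nerves. Of 14 genes for fusion with lysosomes, 2 were higher and 4 lower, with *Vps16* (0.64, SE 0.13) and *Vps39* (0.20, SE 0.078) of the tethering complexes among the former and *Vps33a* (-0.54, SE 0.079) and the SNARE gene *Stx17* (-0.38, SE 0.094) among the latter. Among injured nerves at 4 wpc, *Snap29*, a SNARE partner of syntaxin 17, was lower in Lepr-cKO (-0.64, SE 0.16, adjusted p 0.0466), as was *Rragc* (-0.43, SE 0.10, adjusted p 0.0298). They were the only genes called there, 1 of the 14 for fusion and 1 of the 25 of mTORC1 and AMPK signaling. None was called in the remaining lists, and the share of all genes for that comparison is given above.

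The 8 further cargo receptor genes followed the receptors among the members, with 8 of 8 lower and none higher in Lepr-ctrl and in Lepr-cKO at 2 wpc, 6 lower and 1 higher in Lepr-ctrl and 5 lower and none higher in Lepr-cKO at 4 wpc. *Ccpg1*, a receptor for endoplasmic reticulum, was lower by -1.54 (SE 0.27) in Lepr-ctrl at 2 wpc. *Calcoco2*, which encodes NDP52, had 355 counts in all over the 5 healthy and 2 counts over the 5 injured Lepr-ctrl libraries at 2 wpc, and 202 against 0 at 4 wpc. Of 8 other transcription factor genes linked to autophagy, 3 were higher and 4 lower in Lepr-ctrl at 2 wpc. *Foxo4* was lower by -1.12 (SE 0.14) and *Foxo3* by -0.68 (SE 0.14), whereas *Atf4*, of the integrated stress response, was higher by 0.82 (SE 0.12). *Tfec*, a relative of *Tfeb* expressed in macrophages, had 7 counts over the 5 healthy and 727 over the 5 injured libraries.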

How the data were processed

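Endoneurial RNA was sequenced as single reads of 50 bases from unstranded libraries. Per the labels and the submitters' processing notes, the authors demultiplexed with bcl2fastq 2.20.0.422, aligned to GRCm38 with STAR 2.5, allowing 2 mismatches, and counted reads per Ensembl gene with featureCounts 1.5.0-p1. The deposited values are raw counts per gene and library. Strand and multi-mapping settings of the counting are not given in the sources used here. The study's methods also do not say how reads on bases shared by 2 genes were counted. Genes were named from GENCODE M21 (55480 of 55573 matched).

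Samples were grouped by genotype, nerve and time from the labels. Counts were filtered (filterByExpr, minimum count 10, minimum total 15), scaled by TMM and fitted over all 39 libraries with edgeR 4.0.16 (R 4.3.3, glmQLFit and glmQLFTest, Benjamini-Hochberg over all genes tested). CPM are TMM-scaled with no prior count. RPKM divide by the length of all exons of a gene in GENCODE M21, merged over its transcripts. Intervals are 95% t intervals with 31 residual degrees of freedom. In simulated counts laid out as the Lepr-ctrl comparison at 2 wpc (17898 genes), 53 of 100 genes changed 2-fold and 21 of 100 changed 1.5-fold were called. The changed genes were drawn at random from those tested, at any level, and no others were changed. In the data far more genes passed, so these rates do not carry over to the members. Alternatives were DESeq2 1.42.0, its size factors in edgeR, other filters, mitochondrially encoded genes left out, only the groups compared, the study's fold threshold, each library left out (except the group of 6), and the animal as a block. Both nerves of a mouse share its number, so numbers pair the samples. Over 5000 genes, deviations from the group means correlated above 0.1 in 14 of 17 pairs (r from -0.116 to 0.567). Ratios were tested by two-sided exact permutation.

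The 40 genes and all lists were chosen with earlier results of these data known. Members named with full values were the ATG8 genes, *Sqstm1*, those past the fold threshold and those called between times or nearest to it between genotypes, and *Atg101* and *Atg4a*, chosen after their values were seen. Of the other lists, the 2 largest called changes in each direction in Lepr-ctrl at 2 wpc were named. *Mtor*, *Prkaa2*, *Rragc* and *Snap29* were named after their values were seen.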

Additional observations from a re-analysis of the deposited data

Results flagged for a closer look

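Over 88 tests for 1 library standing far from the others of its group (Dixon's ratio on the named members' CPM and the 2 ratios, groups of 4 to 6), 10 values from 7 libraries were marked, where chance marks about 1 in 20 groups. In *Map1lc3a*, the healthy Lepr-cKO nerve SLRKO2wpc138c (88.03 CPM) and KO-176Snc (104.8 CPM) were low, and the injured Lepr-cKO nerve SLRKO2wpc126i, which holds skeletal muscle transcripts, was high (205.6 CPM). In *Map1lc3b*, the healthy Lepr-cKO nerve SLRKO2wpc138c was low (149.1 CPM) and the healthy Lepr-ctrl nerve WT-168Snc high (188.7 CPM). The healthy Lepr-cKO nerve KO-177Snc was low in *Atg9a* (25.26 CPM) and in *Optn* (35.8 CPM). The injured Lepr-ctrl nerve SLRKO2wpc131i was high in *Atg9a* (12.35 CPM) and in the log2 ratio of *Gabarapl1* to *Gabarap* (-1.26), and SLRKO2wpc147i of the same group was high in the log2 ratio of *Map1lc3a* to *Map1lc3b* (0.48).

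The response to injury differed between 2 and 4 wpc, by the test of the difference itself, for *Vmp1* (-1.06), *Atg5* (0.52), *Atg10* (0.72), *Map1lc3b* (0.52), *Gabarap* (0.65), *Gabarapl1* (0.91), *Gabarapl2* (0.54), *Optn* (0.48) and *Tax1bp1* (0.46) in Lepr-ctrl, and for *Map1lc3b* (0.49) and *Gabarapl1* (1.03) in Lepr-cKO (log2 scale, 4 wpc minus 2 wpc).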

How the results depend on the processing

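Counts of members that passed were within 1.5 times of those reported under DESeq2, both filters, the scaling alternatives, the fits with only the groups compared and the animal as a block, with the exceptions given here. The added fold threshold left 4, 4, 2 and 2 members in the injury comparisons (Lepr-ctrl and Lepr-cKO at 2 wpc, then at 4 wpc), and 1 and 1 in the differences between times in Lepr-ctrl and Lepr-cKO. Without an expression filter the latter were 3 and 1. For injured Lepr-cKO against Lepr-ctrl nerves at 4 wpc, 2 members passed with DESeq2, 1 with mitochondrially encoded genes left out (*Atg5*) and 2 with at least 10 counts in every library (*Atg5* and *Gabarap*). The causes were not tested. The shares of all genes passing under these alternatives, and in the fits below without 1 library, are not given here.

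Leaving out single libraries (none of the 6 healthy Lepr-cKO nerves at 2 wpc was left out) gave 30 to 32, 28 to 32, 25 to 27 and 25 to 28 members in the injury comparisons, 0 to 0 and 0 to 4 between genotypes in injured nerves at 2 and 4 wpc, and 4 to 10 and 1 to 3 between times in Lepr-ctrl and Lepr-cKO. The log2 ratio of *Gabarapl1* to *Gabarap* ran from -2.16 to -2.07, -2.31 to -2.16, -1.87 to -1.79 and -1.59 to -1.43, and between genotypes from -0.20 to -0.04 and 0.12 to 0.28. That of *Map1lc3a* to *Map1lc3b* ran from 0.38 to 0.58, 0.53 to 0.80, 0.22 to 0.36 and 0.25 to 0.41, and between genotypes from 0.03 to 0.32 and -0.04 to 0.12. That last difference, 0.04 in all libraries, changed sign without KO-175Sni (-0.04) or WT-178Sni (-0.02). The log2 fold change of *Map1lc3a* ran from -0.39 to 0.02 in Lepr-cKO at 2 wpc, above 0 without SLRKO2wpc125i (0.01), SLRKO2wpc128i (0.00) or SLRKO2wpc135i (0.02), and from -0.05 (without WT-171Sni) to 0.14 in Lepr-ctrl at 4 wpc, and passed only at -0.39.

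With the animal as a replicate block, the ratio of *Gabarapl1* to *Gabarap* changed by -2.09, -2.19, -1.87 and -1.49 and that of *Map1lc3a* to *Map1lc3b* by 0.59, 0.66 and 0.33 (the last at 4 wpc in Lepr-cKO), none of which can pass with so few pairs. The block changed the calls given in the report and no other call of a member.

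Each of these genes had at least 89 counts in every library. The shallowest group was injured Lepr-ctrl at 4 wpc.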
